A study of Homo sapiens with 6 samples.

Results

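SRXN1 and OSGIN1 are target genes of the transcription factor NRF2, and each is represented by 1 named feature on the array. They were taken by gene symbol, and they are 2 of the 14884 genes with a symbol that entered the comparisons. The pair was chosen by its levels in these same arrays, higher after mild than after severe heat, so their temperature differences are given below as a description, with no test. RNA came from the A549 line, long established from a human lung adenocarcinoma, and each of 6 groups was 1 array. All cells first grew for 24 h at 37 °C. The control received nothing further, and the irradiated group received 3 Gy of X-rays and was kept for 3 h at 37 °C. The mild heat group spent 1 h at 41.5 °C and the severe heat group 1 h at 44 °C, each followed by 3 h at 37 °C. The last 2 groups had 1 h at 41.5 °C or 44 °C and then 3 Gy straight afterwards, with no stated time before harvest. How long the control was kept beyond those 24 h is not stated, so time in culture cannot be told apart from treatment in comparisons with it. The combined groups may also differ from heat alone in time after heat, which cannot be told apart from radiation in those pairs.

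NRF2, encoded by NFE2L2, is held in the cytoplasm and sent for degradation by KEAP1, an adaptor of a ubiquitin ligase whose cysteines sense oxidants and electrophiles. When KEAP1 is modified or lost, NRF2 accumulates, pairs with small MAF proteins and binds antioxidant response elements near genes for glutathione, thioredoxin, heme and NADPH metabolism. A549 cells are known to carry an inactivating KEAP1 mutation and to have constitutively active NRF2, which limits them as a model of the inducible response. SRXN1 encodes sulfiredoxin, which uses ATP to reduce overoxidised peroxiredoxins and so returns them to use. OSGIN1 encodes oxidative stress-induced growth inhibitor 1, a protein linked to growth arrest and cell death.

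SRXN1 lies on chromosome 20 and OSGIN1 on chromosome 16. The 250 bases before each start site are shown because the levels of both genes were highest in the same 2 arrays, and they come from the RefSeq promoter table of build GRCh38.p14. Capitals mark a match to any of the motifs searched on both strands: the core of the antioxidant response element (TGACNNNGC), the AP-1 site (TGACTCA) and the core of the heat shock element (GAANNTTC). An AP-1 site followed by GC would be a match to both of the first motifs.
SRXN1, chr20:653201-653450, minus strand: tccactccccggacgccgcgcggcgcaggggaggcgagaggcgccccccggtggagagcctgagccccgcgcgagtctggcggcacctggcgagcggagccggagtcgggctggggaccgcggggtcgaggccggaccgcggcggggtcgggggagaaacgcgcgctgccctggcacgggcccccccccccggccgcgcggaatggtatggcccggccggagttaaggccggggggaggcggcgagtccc
OSGIN1, chr16:83952990-83953239, plus strand: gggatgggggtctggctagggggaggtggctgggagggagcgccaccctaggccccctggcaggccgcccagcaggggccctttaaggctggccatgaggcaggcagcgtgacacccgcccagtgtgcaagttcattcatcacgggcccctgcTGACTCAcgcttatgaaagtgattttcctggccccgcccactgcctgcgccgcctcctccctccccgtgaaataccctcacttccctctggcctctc
The OSGIN1 stretch held 1 match, an AP-1 site that begins 97 bases before the start. The SRXN1 stretch held 0 matches to the 3 motifs. Among 27305 promoters of the same length, 11.0% held the antioxidant core, 4.16% the AP-1 site and 5.85% the heat shock core. The absence of the antioxidant core says only that these letters are not in these windows. The SRXN1 stretch was 80.4% G or C and the OSGIN1 stretch 66.4%, against a median of 58% over all these promoters.

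Untreated cells had an SRXN1 level of 9.60 on the log2 scale, and irradiated cells at 37 °C had 9.52. It was 10.57 after 41.5 °C and 10.49 after 41.5 °C with radiation. It was 9.64 after 44 °C and 9.69 after 44 °C with radiation. The 2 arrays at 41.5 °C stood above the other 4, the smallest distance being 0.80, while the 2 arrays of any one temperature lay within 0.09 of each other. SRXN1 after mild heat exceeded its 37 °C level by 0.96 without radiation and 0.98 with it. The model over all 6 arrays gave 0.97 ± 0.07 (SE, 2 arrays at each temperature), which is 1.96-fold. Ordered from the highest value of that comparison, SRXN1 had rank 28 of the 14884 genes.

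After severe heat SRXN1 was near its level at 37 °C. The difference between 44 °C and 37 °C was 0.04 without radiation and 0.18 with it, with a mean of 0.11 ± 0.07 (SE, 2 arrays at each temperature). Set against 41.5 °C, the 44 °C arrays were lower by 0.92 without radiation and by 0.80 with it. The mean of -0.86 ± 0.07 corresponds to a level 1.82-fold lower after severe than after mild heat. The order of the temperatures for SRXN1 was therefore 41.5 °C, then 44 °C, then 37 °C, but the last 2 differed by little more than the spread within a temperature.

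OSGIN1 was at 6.43 in untreated cells and at 6.09 in irradiated cells at 37 °C. It was 7.06 after 41.5 °C and 6.96 after 41.5 °C with radiation. It was 5.99 after 44 °C and 5.91 after 44 °C with radiation. As with SRXN1, the 2 mild heat arrays were the highest, by at least 0.53, and the 2 severe heat arrays were the lowest of the 6. The 2 arrays at 37 °C were 0.33 apart, against 0.10 at 41.5 °C and 0.08 at 44 °C. Each of these distances is between an irradiated and an unirradiated array, so radiation cannot be told apart from spread in it. The OSGIN1 differences from 37 °C therefore depend on which 37 °C array is used.

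Mild heat thus gave an OSGIN1 difference from 37 °C of 0.63 without radiation and 0.87 with it, with a mean of 0.75 ± 0.11 (SE, 2 arrays at each temperature), which is 1.68-fold and rank 91 of the 14884 genes. At 44 °C the differences from 37 °C were -0.43 and -0.18, with a mean of -0.31 ± 0.11. From 41.5 °C to 44 °C the level was lower by 1.06 and by 1.05, a mean of -1.06 ± 0.11 or 2.08-fold. Ordered from the most negative value of that comparison, OSGIN1 had rank 61. OSGIN1 thus differed from SRXN1 in the severe heat arrays, which fell below both 37 °C arrays for OSGIN1 and above both for SRXN1. That difference between the genes was not tested.

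**Figure D1:**
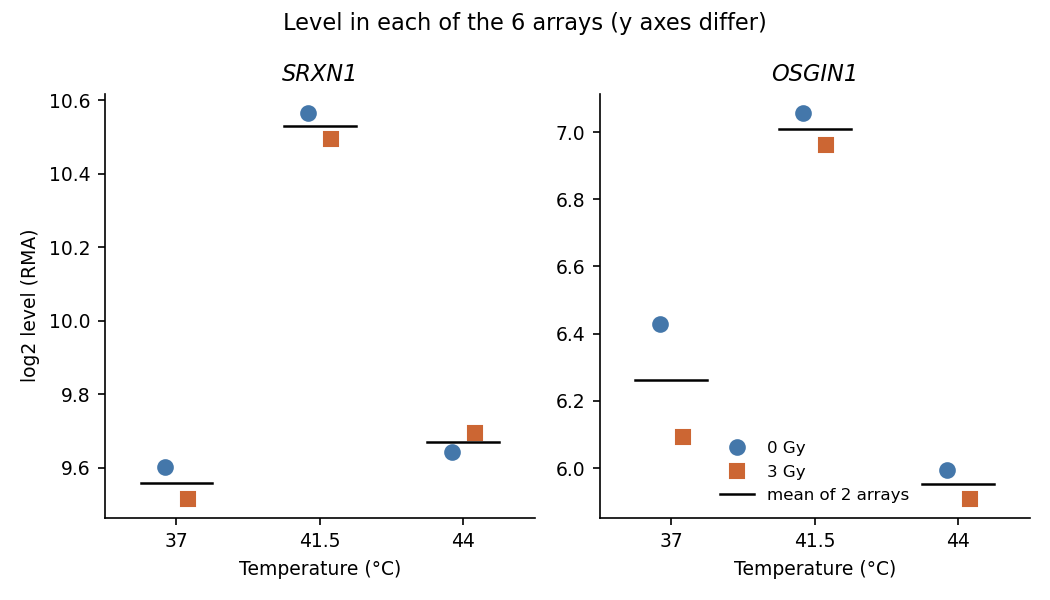
The log2 level of SRXN1 (left) and OSGIN1 (right) is plotted for each of the 6 arrays by temperature, circles without radiation, squares with 3 Gy, and a line at the mean of the 2 arrays. Both genes are highest in the 2 arrays at 41.5 °C, and the y axes differ and do not start at 0.

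How unusual this shape was can be read from the distance between the lower of the 2 mild heat arrays and the highest of the other 4, a measure chosen after the values were seen. That distance was above 0 for 2070 genes (13.9%) and above 0.5 for 54 genes (0.363%), both SRXN1 and OSGIN1 among the latter. SRXN1 had rank 7 and OSGIN1 rank 43 by it. These ranks describe how the pair was picked and carry no test.

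The genes closest in profile were found from the root mean square difference between log2 profiles over the 6 arrays, each centred on its own mean, among genes with at least 0.8 times the range of SRXN1 or of OSGIN1. For SRXN1, with 1445 candidates, the closest was TIPARP, an ADP-ribosyltransferase, with a root mean square difference of 0.053 and Pearson r = 0.994 over 6 arrays. TIPARP was at 7.37 in the control, 8.46 and 8.40 in the mild heat arrays without and with radiation, and 7.47 and 7.61 in the severe heat arrays. Next came MAP3K14, a kinase of noncanonical NF-kappaB signalling (0.086), the antisense RNA PRR7-AS1 (0.097), BCL9L, a beta-catenin cofactor (0.098), and the keratin KRT80 (0.106). All 5 had their highest values in the 2 mild heat arrays.

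For OSGIN1, with 1065 candidates, the closest was MAMLD1, at a root mean square difference of 0.068 and r = 0.996. MAMLD1 was at 5.68 and 5.44 at 37 °C without and with radiation, 6.32 and 6.20 at 41.5 °C, and 5.41 and 5.29 at 44 °C. NCOA5, a nuclear receptor coregulator (0.094), the zinc finger gene ZNF239 (0.103), the deubiquitinase STAMBPL1 (0.118) and the zinc finger gene ZNF574 (0.120) followed. In each of these 5 the irradiated array at 37 °C was below the control, as for OSGIN1. That also held for SRXN1 and for all of its closest genes except TIPARP, so it does not set the OSGIN1 group apart. SRXN1 and OSGIN1 themselves differed by 0.189 (r = 0.911), which put SRXN1 at rank 38 among the candidates for OSGIN1 and OSGIN1 at rank 43 among those for SRXN1. These correlations share the same 6 arrays and only describe them.

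**Figure D2:**
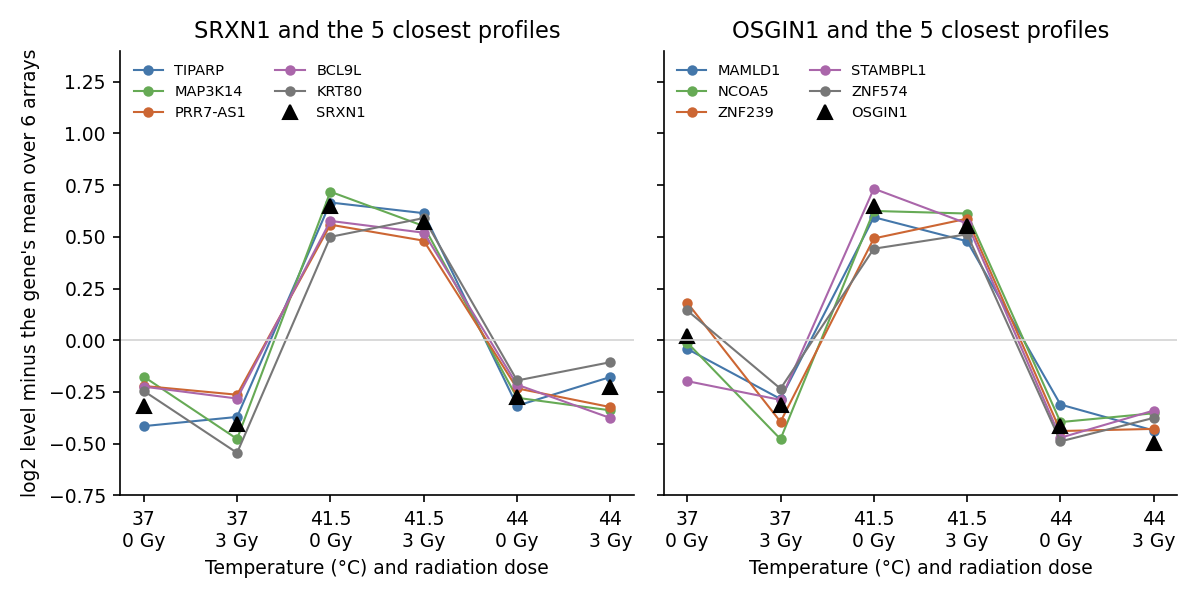
Log2 levels minus each gene's mean over the 6 arrays are plotted for SRXN1 (left, triangles) and OSGIN1 (right, triangles) with the 5 closest genes of each as lines, by temperature and dose. All the genes shown peak in the 2 arrays at 41.5 °C, and all of them except TIPARP have the irradiated 37 °C array below the control.

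Radiation was the comparison least tied to how the genes were picked, and it was tested with limma over all 14884 genes. For SRXN1 the irradiated array differed from its unirradiated partner by -0.09 at 37 °C, -0.07 at 41.5 °C and 0.05 at 44 °C. The radiation term was -0.04 ± 0.06 (SE, 3 arrays with and 3 without radiation, limma adjusted p = 0.997), with a 95% interval from -0.17 to 0.09. For OSGIN1 the 3 differences were -0.33, -0.10 and -0.08, so all pairs pointed down. The term was -0.17 ± 0.09 (limma adjusted p = 0.997), with a 95% interval from -0.37 to 0.03, and neither gene passed. By limma 0 genes of the 14884 (0%) passed for radiation, 733 had an unadjusted p under 0.05, and without the intensity trend the counts were 0 and 706. Without either 44 °C array, when the other adds nothing to the radiation term, 85 genes passed, 40 higher and 45 lower.

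The combined treatments differed little from the sum of their parts for SRXN1. The departure from additivity, which is the radiation difference of the heated arrays less that of the arrays at 37 °C, was 0.01 at 41.5 °C and 0.14 at 44 °C. For OSGIN1 it was 0.24 and 0.25. Both OSGIN1 values contain the same difference of -0.33 between the irradiated array and the control, and none of the 4 values has a replicate. The heat-alone arrays had 3 h after heat, the combined arrays no stated time. Time therefore cannot be told apart from radiation in these values. The same limit holds for the radiation differences at 41.5 °C and 44 °C and for the radiation terms.

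The pathway around the pair was read from a list of 30 core NRF2 targets, of which 11 were named on the array, and 9 besides SRXN1 and OSGIN1. NQO1, GCLM, GCLC and SLC7A11, often used as readouts of NRF2, are not analysed here. At 41.5 °C against 37 °C, where limma called 3.29% of all genes (2.18% higher and 1.1% lower), 1 of these 9 rose and 0 fell, with a median of -0.02 beside -0.0039 over all genes. At 44 °C against 37 °C (6.11% of all genes, 3.57% higher and 2.54% lower) 1 of 9 rose and 0 fell, with a median of -0.07 beside -0.04. At 44 °C against 41.5 °C (12.1% of all genes, 4.9% higher and 7.23% lower) 0 of 9 rose and 2 fell, with a median of -0.07 beside -0.02. With so few members these shares say little about the list.

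HMOX1, the enzyme that breaks down heme, was the core target that rose at 41.5 °C. Its level at 37 °C was 8.56 without and 8.35 with radiation, 8.99 and 9.15 in the mild heat arrays without and with radiation, and 8.20 and 8.42 in the severe heat arrays. The mild heat arrays were again the highest 2 of the 6. The rise was 0.62 ± 0.10 (SE, 2 arrays at each temperature, limma adjusted p = 0.0122). It did not pass without the intensity trend (limma adjusted p = 0.157) or with all features in 1 fit (limma adjusted p = 0.178). The call was also lost without the irradiated array (0.42) or the combined 41.5 °C array (0.54). From 41.5 °C to 44 °C HMOX1 fell by 0.77 ± 0.10 (limma adjusted p = 0.0011), a call kept when any 1 array was left out.

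TXNRD1, the thioredoxin reductase that feeds electrons to peroxiredoxins through thioredoxin, had the same shape on a smaller scale. It was at 9.25 in both 37 °C arrays, 9.67 and 9.48 at 41.5 °C, and 9.26 and 9.24 at 44 °C. Its value at 41.5 °C did not pass (0.32 ± 0.08, limma adjusted p = 0.0523), and from 41.5 °C to 44 °C it fell by 0.32 ± 0.08 (limma adjusted p = 0.0234). The fall was lost without any 1 of the 6 arrays except the combined 41.5 °C array, with limma adjusted p up to 0.167.

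Other core targets did not follow the pair. Thioredoxin itself, TXN, had values of -0.05 at 41.5 °C and -0.06 at 44 °C against 37 °C, and PRDX1, a peroxiredoxin and substrate of sulfiredoxin, had -0.04 and -0.14. The pentose phosphate enzyme PGD had -0.02 and -0.17, UGDH, which makes UDP-glucuronic acid, had -0.10 and -0.04, and the glutathione peroxidase GPX2 had -0.21 and -0.10. None of these passed in either comparison (limma adjusted p from 0.175 to 0.905). MAFG, a small MAF partner that is also a target, rose at 44 °C by 0.56 ± 0.11 (limma adjusted p = 0.0139), and its highest levels were thus in the severe heat arrays. That call was lost without the control (limma adjusted p = 0.0834), the irradiated array (limma adjusted p = 0.221) or the 44 °C array (limma adjusted p = 0.0652).

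Among the 13 measured regulators of NRF2, KEAP1 was the one that rose at 41.5 °C (7.69%, beside 2.18% of all genes). At 37 °C it was at 7.58 without and 7.40 with radiation, at 41.5 °C at 7.92 and 8.12, and at 44 °C at 7.29 and 7.27. Like OSGIN1, KEAP1 was highest in the 2 mild heat arrays and lowest in the 2 severe heat arrays. The rise was 0.53 ± 0.10 (limma adjusted p = 0.0211). It did not pass without the intensity trend (limma adjusted p = 0.178) or with all features in 1 fit (limma adjusted p = 0.198). The call was also lost without the control (0.66), the irradiated array (0.40) or the combined 41.5 °C array (0.38). From 41.5 °C to 44 °C KEAP1 fell by 0.74 ± 0.10 (limma adjusted p = 0.00123), a call kept without any 1 array.

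The transcript of NRF2 itself did not pass in any comparison. NFE2L2 was at 8.12 in the control, 8.01 in the irradiated array, 8.12 and 8.09 at 41.5 °C and 7.89 and 7.91 at 44 °C, with a value of 0.04 ± 0.08 at 41.5 °C (limma adjusted p = 0.879) and -0.16 ± 0.08 at 44 °C (limma adjusted p = 0.295). BTRC, part of another ligase that targets NRF2, and OSGIN2 did not pass either, OSGIN2 at -0.10 for both temperatures (limma adjusted p = 0.628 and 0.573).

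Other regulators split by direction between the temperatures. MAFF, a small MAF protein, rose at 44 °C by 0.91 ± 0.13 (limma adjusted p = 0.00257), from 5.18 in both 37 °C arrays to 6.27 and 5.91, a call lost without the control (0.75, limma adjusted p = 0.0886). It was higher at 44 °C than at 41.5 °C by 0.71 (limma adjusted p = 0.00693, and 0.0638 without the 44 °C array). From 41.5 °C to 44 °C, TRIM16, a ubiquitin ligase reported to stabilise NRF2, fell by 0.70 (limma adjusted p = 0.00857, and 0.0885 without the combined 41.5 °C array), and SQSTM1, the autophagy receptor p62 that binds KEAP1, fell by 0.36 (limma adjusted p = 0.0247). The SQSTM1 call was lost without the control, either 44 °C array or the combined 41.5 °C array, with limma adjusted p up to 0.179. Of the 13 regulators 1 rose (7.69%, beside 4.9% of all genes) and 4 fell (30.8%, beside 7.23%) from 41.5 °C to 44 °C, the other one being PALB2, named after its value was seen. Without the intensity trend, where 397 of all 14884 genes rose and 394 fell, 1 regulator rose and 1 fell, MAFF and KEAP1. With all features in 1 fit, where 1515 of 53617 rose and 1012 fell, the same regulators were called. Without the 44 °C array 0 rose and 2 fell, and without the combined 41.5 °C array 1 rose and 2 fell.

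**Figure D3:**
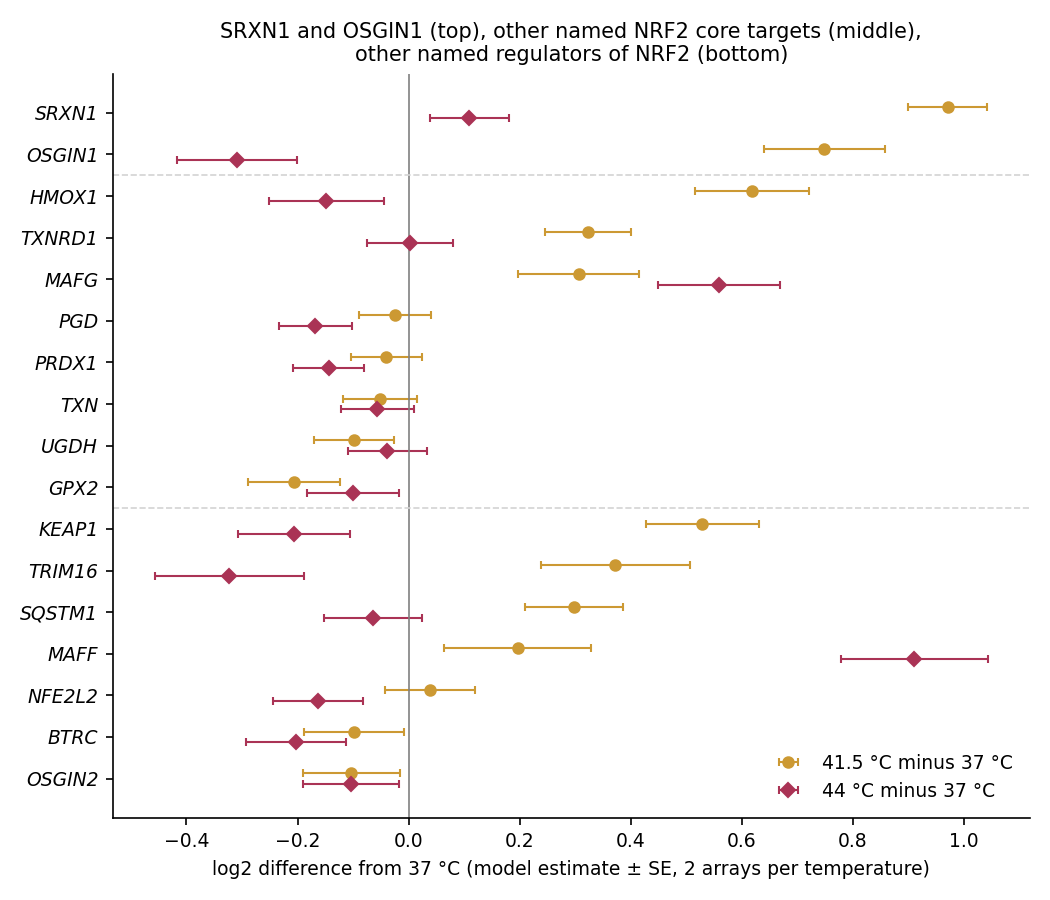
Log2 differences from 37 °C are plotted for 41.5 °C (circles) and 44 °C (diamonds), as model estimates with SE bars, for SRXN1 and OSGIN1, the other core targets named here and the other regulators named here. SRXN1, OSGIN1, HMOX1 and KEAP1 have the highest circles, and MAFF and MAFG have the highest diamonds.

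The 7 lists of antioxidant genes and the core list together held 73 measured genes besides SRXN1 and OSGIN1. At 41.5 °C 2 of the 73 rose, HMOX1 and KEAP1, which is 2.74% beside 2.18% of all genes, and 0 fell, beside 1.1%. At 44 °C 3 rose (MAFF, MAFG and SESN2), or 4.11% beside 3.57%, and 1 fell, or 1.37% beside 2.54%. From 41.5 °C to 44 °C 2 rose, or 2.74% beside 4.9%, and 9 fell, or 12.3% beside 7.23%. Without the intensity trend, where 397 of all 14884 genes rose and 394 fell over that step, 1 of the 73 rose and 2 fell. The medians at 41.5 °C and 44 °C were 0.0075 and -0.08 against 37 °C, beside -0.0039 and -0.04 for all genes, and the median at 41.5 °C was -0.03 after a further quantile normalization. In 13 of the 73 genes (17.8%) both mild heat arrays were above the other 4, beside 13.9% of all genes.

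Within the thioredoxin, peroxiredoxin and sestrin list, SRXN1 had the highest value at 41.5 °C of the 17 measured. As SRXN1 was picked for its temperature pattern, that place only describes the choice. TXNIP, an inhibitor of thioredoxin, had the lowest value (-0.22, limma adjusted p = 0.624). TXNIP was at 2.31 to 2.94 in the 6 arrays, below the lowest array median of 4.39. SESN2, a sestrin, rose at 44 °C by 0.84 ± 0.21 (limma adjusted p = 0.0453), a call lost without the 44 °C array (0.40, limma adjusted p = 0.302), the control or the irradiated array and after a further quantile normalization (limma adjusted p = 0.0619). Of the 21 genes of glutathione synthesis and use, 0 passed at 41.5 °C or at 44 °C against 37 °C, beside 3.29% and 6.11% of all genes. The highest value at 41.5 °C was that of GSTM2 (0.72, limma adjusted p = 0.152), which was at only 3.45 in the control. The lowest was that of MGST3 (-0.31, limma adjusted p = 0.329). MGST1, a microsomal glutathione transferase, fell from 41.5 °C to 44 °C by 0.44 (limma adjusted p = 0.017), a call lost without the 44 °C array (limma adjusted p = 0.142), the 41.5 °C array, the control or the irradiated array.

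In the heme and iron list of 6 measured genes, BLVRA, which reduces the biliverdin that HMOX1 makes, fell at 44 °C by 0.33 ± 0.08 (limma adjusted p = 0.0377), a call lost without the irradiated array (limma adjusted p = 0.284), the control or either 44 °C array. FLVCR1, a heme exporter, fell from 41.5 °C to 44 °C by 0.32 (limma adjusted p = 0.0415), a call lost without either array that had heat alone, the control or the irradiated array (limma adjusted p up to 0.296). Of the 5 measured carbonyl and drug detoxification genes, CBR1, a carbonyl reductase, fell from 41.5 °C to 44 °C by 0.40 (limma adjusted p = 0.0322), and it did not pass once any 1 array was removed (limma adjusted p from 0.0584 to 0.191). Between temperatures 3.29% to 12.1% of all genes were called. The 6 measured genes of NADPH supply and the 5 of superoxide and peroxide removal had 0 calls, which says little with so few members. Their values at 41.5 °C ran from -0.20 for NNT to 0.02 for SHMT2 and from -0.18 for catalase (CAT) to 0.22 for TIGAR.

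The radiation values of SRXN1 and OSGIN1 can be set beside other members of these lists. The median radiation term of the 73 genes was 0.015. SESN1, SESN2 and TIGAR were among the members with high terms, SESN1 having the highest (0.95), so they do not stand for the lists. The OSGIN1 term had rank 1196 of the 14884 genes, ordered from the most negative. SESN1 was higher in the irradiated array by 1.35 at 37 °C and by 1.50 at 41.5 °C, but by 0.0045 at 44 °C. SESN2 was higher by 0.59, 1.25 and 0.05, and TIGAR, a p53-induced phosphatase, by 0.51 and 0.83, with -0.08 at 44 °C. None of these passed for radiation in limma (adjusted p = 0.609, 0.774 and 0.853). Without either 44 °C array 4 of the 73 genes passed, all 3 of these and GSTM2, beside 85 of all 14884 genes. GSTM2 was at a low level, 3.45 in the control. Without either 44 °C array the radiation terms of SRXN1 and OSGIN1 were -0.08 and -0.21, and neither passed (limma adjusted p from 0.754 to 0.952).

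**Figure D4:**
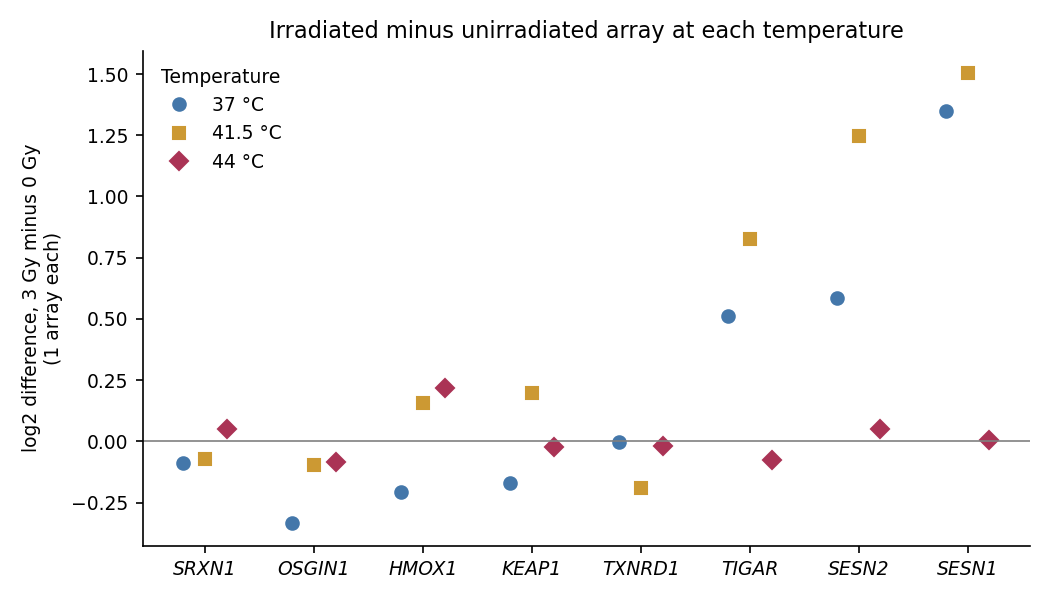
The log2 difference between the irradiated and the unirradiated array is plotted at 37 °C, 41.5 °C and 44 °C for 8 genes, with 1 array on each side and no error bar. SRXN1 and OSGIN1 stay between -0.33 and 0.05, while SESN1 reaches 1.50 at 41.5 °C.

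The arrays had medians from 4.39 to 4.46 on the log2 scale over 53617 features. The epithelial and alveolar markers, of which 10 of 12 were measured, averaged between 5.63 and 5.73 per array, with KRT18 from 11.43 to 11.59 and the surfactant gene SFTPC from 3.99 to 4.62. The 3 fibroblast markers of 8 averaged 3.31 to 3.60, the 4 endothelial markers of 6 averaged 3.94 to 4.15, and the 4 leukocyte markers of 10 averaged 5.34 to 5.73. CD68, a lysosomal protein in the leukocyte list, rose at 44 °C by 0.68 (limma adjusted p = 9.1e-04, and 0.0523 without the irradiated array). From 41.5 °C to 44 °C, the step over which SRXN1 and OSGIN1 were lower, 4 markers passed, where 12.1% of all genes did. They were 2 of the 10 epithelial and alveolar markers (20%) and 2 of the 4 leukocyte markers (50%). Of the 3 fibroblast and the 4 endothelial markers 0 passed. With so few markers these shares say little. CD14, a monocyte receptor, rose by 0.77 (limma adjusted p = 0.00362) and CD68 by 0.56 (limma adjusted p = 0.00221), and both calls were kept without any 1 array. The epithelial adhesion gene EPCAM rose by 0.45 (limma adjusted p = 0.0249), lost without any 1 array except the 44 °C array, and the keratin KRT7 fell by 0.40 (limma adjusted p = 0.023), lost without either array that had heat alone or the combined 41.5 °C array. The part of these markers in the values of SRXN1 and OSGIN1 was not tested. The table has no detection calls, so whether a low marker or a low list gene was present is not known. Whether each array had its own culture is not stated, and the p-values therefore describe spread among the 6 arrays that may be technical.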

How the data were processed

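The deposited values are log2 levels, which the authors made with Affymetrix Expression Console 1.1 and RMA, per the submitters' processing notes; RMA subtracts background, quantile-normalizes the arrays and summarises each feature's probes. The build behind the probes is not known here. Platform annotation named 1 gene for 16098 of 53617 features, several for none, and the rest are unnamed here. Matching to RefSeq identifiers changed 0 symbols. For the 779 genes with several features the one with the highest mean was used, leaving 14884 genes.

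An additive model (temperature as a factor plus radiation) was fitted with limma 3.58.1 (R 4.3.3) to the 6 arrays, using an intensity trend and 2 residual degrees of freedom, which hold any interaction as well as noise. Two-sided p-values were adjusted over the 14884 genes (Benjamini-Hochberg); those under 0.05 after adjustment count as called. The number of arrays limits the precision; the median SE was 0.14 between temperatures and 0.11 for radiation. The fit was tested on simulated data. No array has a replicate of its own group, and differences between single arrays carry no test.

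The members and lists were chosen with earlier results of these data known. Named genes are SRXN1 and OSGIN1, set regulators and targets, called core targets, the 2 highest and 2 lowest of each list at 41.5 °C against 37 °C and 44 °C against 41.5 °C, the 5 closest profiles, and marker genes, of which KRT18, KRT7, EPCAM, SFTPC, CD14 and CD68 were named after their values were seen. The text gives those on which a statement rests. Alternatives were 2 other scalings, moderation without the trend, averaged features, no radiation term, only genes at or above the median level, all features in 1 fit, and leaving out each array.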

Additional observations from a re-analysis of the deposited data

Results flagged for a closer look

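In 7 of the 43 genes of the antioxidant lists that the rule named, both pairs of arrays placed the 41.5 °C level above that at 37 °C and the 44 °C level below it. These genes were picked out by sign alone, whatever the size of the difference. OSGIN1 was 1 of them, with 0.75 at 41.5 °C, -0.31 at 44 °C and -1.06 between them, and as it was picked for its temperature pattern, the difference was not tested. For KEAP1 the difference between 44 °C and 41.5 °C was -0.74 (limma adjusted p = 0.00123), for TRIM16 -0.70 (limma adjusted p = 0.00857), for MGST1 -0.44 (limma adjusted p = 0.017) and for CBR1 -0.40 (limma adjusted p = 0.0322). For TIGAR it was -0.53 (limma adjusted p = 0.0689) and for CBR3, a carbonyl reductase, -0.30 (limma adjusted p = 0.0989), and neither passed. At 44 °C against 37 °C none of the 6 genes with a test passed (limma adjusted p from 0.0734 for MGST1 to 0.573 for CBR3). At 41.5 °C against 37 °C only KEAP1 passed, so opposite effects at the temperatures are not shown. The pattern of signs was seen in 10 of the 75 measured genes of those lists (13.3%) and in 1306 of all 14884 genes (8.77%). It was also seen in 5 of the genes closest in profile to SRXN1 or OSGIN1, with differences between 44 °C and 41.5 °C of -0.91 for MAMLD1, -0.80 for PRR7-AS1, -1.05 for STAMBPL1, -0.97 for ZNF239 and -0.91 for ZNF574. Those genes were picked for this likeness, so their differences were not tested.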

How the results depend on the processing

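Without 1 array, the SRXN1 difference ran from 0.93 to 1.01 at 41.5 °C and from 0.044 to 0.17 at 44 °C against 37 °C, and from -0.93 to -0.80 between 44 °C and 41.5 °C. The OSGIN1 differences ran from 0.63 to 0.87, from -0.43 to -0.19 and from -1.12 to -0.99. No direction changed for either gene under any alternative. A further quantile normalization gave SRXN1 0.046 at 44 °C against 37 °C, and median centring gave -0.92 between 44 °C and 41.5 °C. Without 1 array the radiation terms ran from -0.08 to -0.011 for SRXN1 and from -0.21 to -0.09 for OSGIN1, and neither passed.

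Called core targets besides SRXN1 and OSGIN1 numbered 1 at 41.5 °C, 1 at 44 °C and 2 between the temperatures. Without the trend, and with all features in 1 fit, these were 0, 0 and 1. At 41.5 °C the count was 2 with no radiation term and 2 with only genes at or above the median level. Without 1 array the counts ran from 0 to 2, from 0 to 1 and from 1 to 2. Of the 73 genes, 2, 4 and 11 were called, against 0, 1 and 3 without the trend and with all features, and 4 at 41.5 °C with only genes at or above the median level. Those kept without the trend and with all features were MAFF at 44 °C against both other temperatures, and HMOX1 and KEAP1 from 41.5 °C to 44 °C. Without 1 array the counts ran from 0 to 5, from 0 to 7 and from 5 to 8, and for radiation from 0 to 4. Over all genes, 489, 910 and 1805 were called, against 9, 405 and 791 without the trend and 33, 1916 and 2527 of all 53617 features. Without 1 array they ran from 19 (the irradiated array) to 800 (44 °C), from 263 (the control) to 1212 (41.5 °C), and from 1024 (combined 41.5 °C) to 1299 (41.5 °C), and for radiation from 0 to 85 (either 44 °C array). At 44 °C against 37 °C, 532 rose and 378 fell, against 485 and 596 after a further quantile normalization and 467 and 538 after median centring; between 44 °C and 41.5 °C the split was 729 and 1076, against 580 and 1432 after median centring. At 41.5 °C it was 325 and 164, against 273 and 229 after the further quantile normalization. The cause was not tested. The 16 called values of the list genes named by the rule, which leave out PALB2 and the markers, kept their direction under every alternative. In 73 of the 208 refits of them the value no longer passed. Pairing by replicate or culture was not possible because the labels give 1 array per group and no replicate numbers. The additive model compared temperatures within each radiation state.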
